A study of Mus musculus with 26 samples.

Results

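The genes examined were those of mitochondrial complex I that are encoded in the nucleus, taken as every row of the count matrix whose gene name begins with Nduf. The rule selected 55 of 56941 genes listed, and 54 of these were among the 15357 genes abundant enough to be tested. They were sorted by function into 37 complex I subunits, 8 Ndufaf assembly factors, Ndufa4 with its relative Ndufa4l2, and 8 extra copies or pseudogenes. Of the copies, Ndufb11b had no count in any of the 26 libraries and was the member not tested. The 37 subunits and all 8 assembly factors passed the filter on low counts.

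RNA was sequenced from the left ventricle of 26 mice aged 12 to 16 weeks. In all of them both copies of Ppp2r2a, which encodes the B55α regulatory subunit of protein phosphatase 2A, were flanked by loxP sites, and all had received saline from an osmotic minipump for 2 weeks. The knockout mice (cKO, genotype aMHC-CreTg/0-Ppp2r2aL/L) carried a Cre transgene under the αMHC promoter, which is active in cardiomyocytes, and the control mice (Ctrl, genotype aMHC-Cre0/0-Ppp2r2aL/L) carried none. Each sex had 6 Ctrl and 7 cKO libraries, which are labelled as numbered replicates and were taken as 1 mouse each. The background is mixed (floxed line C57BL6/N, Cre line FVB, with C57BL/6N in the strain field), and Cre mice without floxed alleles were not analysed here, so an effect of the deletion and an effect of Cre or of linked FVB sequence cannot be told apart. The title of the series asks about sex-specific regulation, which the design addresses by the genotype effect in each sex and by the difference between these effects.

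Complex I, NADH:ubiquinone oxidoreductase, is the largest enzyme of the respiratory chain. It passes electrons from NADH through a flavin and a chain of iron-sulfur clusters to ubiquinone and pumps protons across the inner mitochondrial membrane. A set of core subunits does the chemistry, in part encoded by mitochondrial DNA, and accessory subunits surround and hold this core. Assembly factors help to build the matrix arm and the membrane arm and do not stay in the finished enzyme, and heart muscle, which makes most of its ATP by oxidative phosphorylation, holds a great deal of the complex.

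The sequence around the start of transcription was available from RefSeq (GRCm38.p6) for 33 of the 37 subunits and 7 of the 8 assembly factors. These windows ran from 250 bases before to 50 bases after the start and were searched on both strands for 6 motifs. The motif of YY1, a factor of housekeeping promoters (AAGATGGC), was in 7 of 33 subunit windows (21.2%) and in 1 of 7 assembly factor windows, against 2.75% of all 32851 windows. All 8 matches lay 11 to 39 bases after the start, on the strand of the gene, so within the transcribed sequence. They are shown because it was the motif whose share in the subunits stood farthest, as a ratio, above its share in all windows, and because Ndufa9, Ndufs4 and Ndufs6 below carry it. Capitals mark the motif:
Ndufa9, chr6:126849097-126849126, minus strand: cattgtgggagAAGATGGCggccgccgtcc
Ndufs4, chr13:114388045-114388074, minus strand: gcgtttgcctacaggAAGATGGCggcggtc
Ndufs6, chr13:73328433-73328462, minus strand: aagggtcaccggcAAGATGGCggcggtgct
Ndufs7, chr10:80249462-80249491, plus strand: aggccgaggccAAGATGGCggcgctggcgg
Ndufa3, chr7:3617384-3617413, plus strand: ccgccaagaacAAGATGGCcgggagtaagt
Ndufb8, chr19:44555393-44555422, minus strand: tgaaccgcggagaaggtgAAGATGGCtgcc
Ndufc1, chr3:51408915-51408944, minus strand: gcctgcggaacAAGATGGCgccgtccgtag
Ndufaf8, chr11:120098933-120098962, plus strand: aggcagggcccAAGATGGCggcgccctcga

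The motif of NRF1 (GCGCATGC), a factor known for promoters of respiratory chain genes, was in 3 of 33 subunit windows (Ndufa11, Ndufa6 and Ndufa8, 9.09%) and in 2 of 7 assembly factor windows (Ndufaf4 and Ndufaf5), against 2.71% of all windows. The windows below are shown because they hold it in overlapping matches on both strands, in a subunit and in both assembly factors. Capitals mark the stretch covered by these matches:
Ndufa11, chr17:56717692-56717721, plus strand: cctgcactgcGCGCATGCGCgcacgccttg
Ndufaf4, chr4:24897960-24897989, plus strand: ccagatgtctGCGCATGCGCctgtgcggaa
Ndufaf5, chr2:140170652-140170681, plus strand: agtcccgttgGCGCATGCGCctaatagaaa

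The ETS motif (CCGGAAG) was in 4 of 33 subunit and 2 of 7 assembly factor windows, against 8.86% of all windows. The ERR motif (AAGGTCA) was in 3 of 33 and 0 of 7, against 4.72%. The SP1 motif (GGGCGG) was in 15 of 33 and 6 of 7, against 35.7%, and CCAAT was in 10 of 33 and 4 of 7, against 37.4%. No motif of the 6 is contained in another on either strand. A match is a description of the letters and was not tested as a site of binding.

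Libraries held 14403102 to 30867399 counts, so that 3 counts, taken as the lowest level a library can show, corresponded to 0.0972 to 0.208 CPM (the unit used throughout for levels, a gene's count relative to the scaled total of its library). The targeted gene was lower in every cKO mouse, with a log2 fold change of -1.40 (edgeR adjusted p = 1.86e-06) in males and -1.58 (edgeR adjusted p = 1.90e-07) in females. Ctrl males 3 and 6 stood apart, with Ppp2r2a at 24.9 and 24.1 CPM against 41.9 to 47.7 CPM in the other Ctrl males and 11.8 to 16.2 CPM in cKO males, and the male results are therefore also given without them. All 8 cardiomyocyte markers were abundant in every group, with summed levels of 59771 to 82074 CPM. The atrial markers Myl7 and Sln had at most 3 counts in any library, and the brown fat marker Ucp1 at most 2.

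Subunits and assembly factors were expressed at levels that did not meet. Per kilobase of the principal transcript, averaged over all mice, the subunits ran from 131 CPM per kb (Ndufs4) to 897 CPM per kb (Ndufb9), with a median of 361. The assembly factors ran from 13.8 CPM per kb (Ndufaf6) to 32.9 CPM per kb (Ndufaf8), with a median of 19.1. The most abundant assembly factor was thus below the least abundant subunit.

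In males every subunit was lower in cKO on the fitted scale, by a modest amount, and few passed the test singly. The log2 fold changes of the 37 subunits had a median of -0.15, beside a median of 0.00 over all genes tested. Subunits other than Ndufs5 lay between -0.22 and -0.07, and Ndufs5, described apart below, was at -0.64. Of the 8 assembly factors 7 were below 0, with a median of -0.12. By edgeR's quasi-likelihood test 3 subunits and 0 assembly factors passed an adjusted p under 0.05, beside 0.443% of all genes (0.26% called lower), while DESeq2 and limma voom each called 1 assembly factor, Ndufaf6. At an unadjusted p under 0.05, 32 of 37 subunits and 3 of 8 assembly factors were lower, beside 7.09% of all genes.

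**Figure D1:**
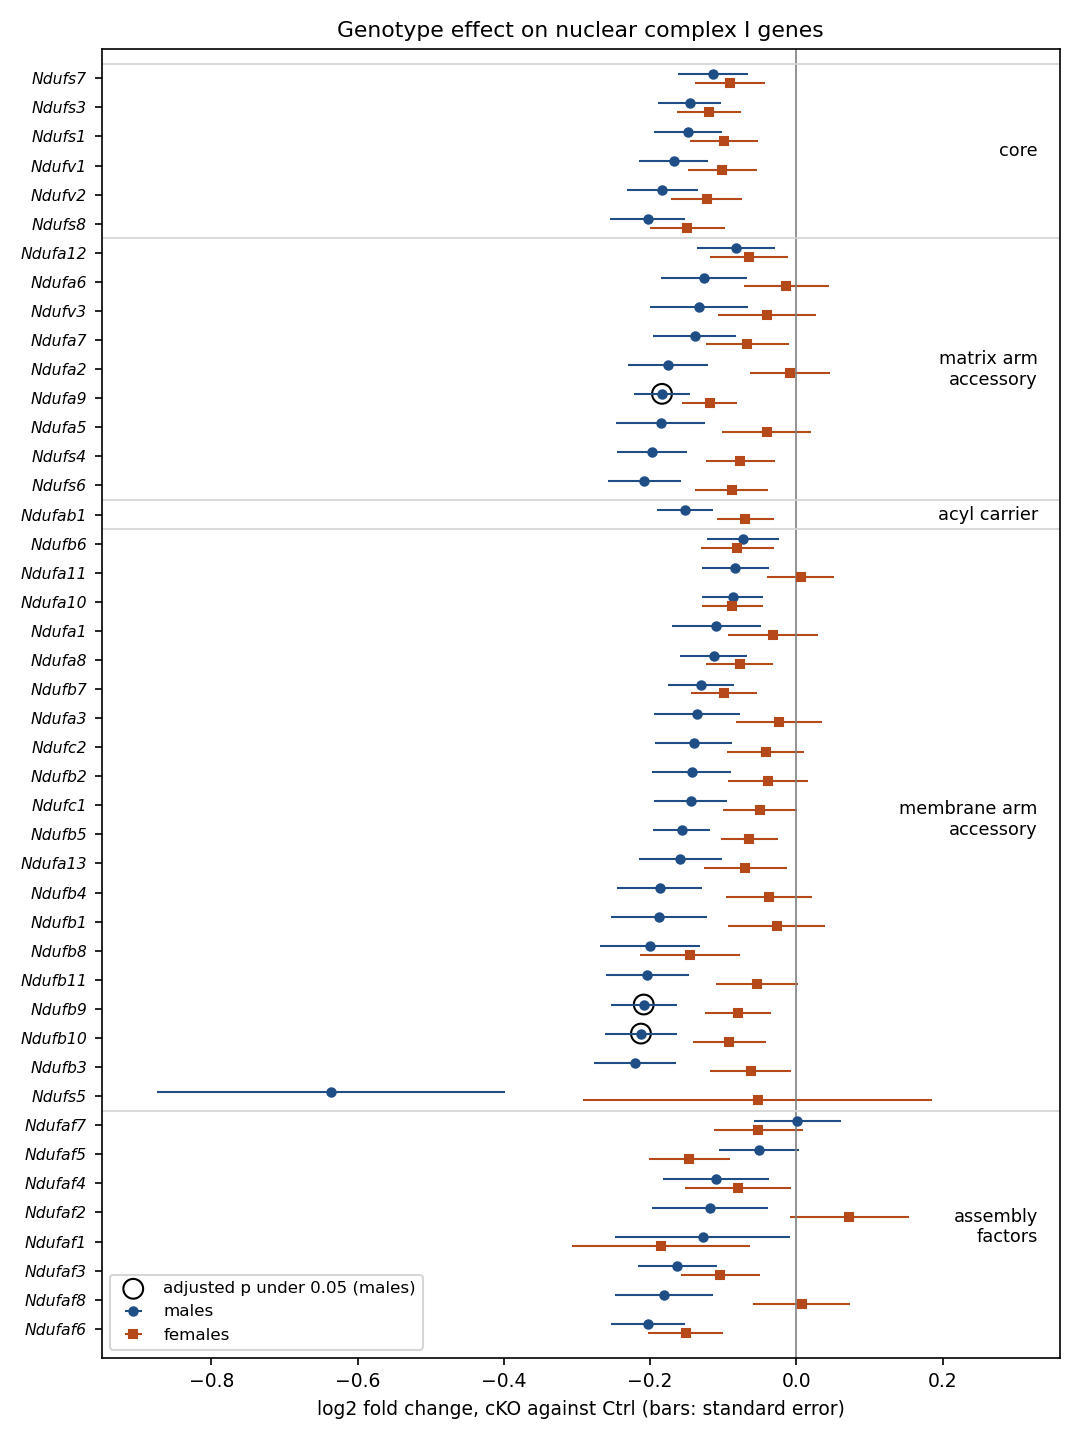
Log2 fold change of cKO against Ctrl on the horizontal axis for 36 of the subunits and 8 assembly factors, ordered by role, with circles for males, squares for females and bars for the standard error. All subunit values drawn for males lie left of 0 (median over 37 subunits -0.15), and most of those of females lie nearer to 0 (median -0.07).

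The summed level of the 37 subunits put the male groups apart. It was lowest at 12806, with a median of 13357 and a highest value of 14209 CPM, in Ctrl males. In cKO males it was lowest at 11628, with a median of 12064 and a highest value of 12582 CPM. Every cKO male was below every Ctrl male, also when Ctrl males 3 and 6, at 13035 and 12806 CPM, are counted. The sum is carried by the most abundant subunits and is given as a description.

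The summed level of the 8 assembly factors was 213 to 256 CPM in Ctrl males (median 240.4) and 214 to 223 CPM in cKO males (median 219). These ranges overlapped through Ctrl male 6 alone, at 213 CPM. Without Ctrl males 3 and 6 the control range was 226 to 256 CPM and did not meet that of the cKO males. The cKO males were close to each other, with an SD of 3.37 CPM (n = 7) against 15.7 CPM (n = 6) in Ctrl males. This sum is also carried by the most abundant genes and is a description. In Ctrl males Ndufaf4 was at 57.1 to 75.8 CPM and Ndufaf1 at 31.8 to 47.5 CPM.

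**Figure D2:**
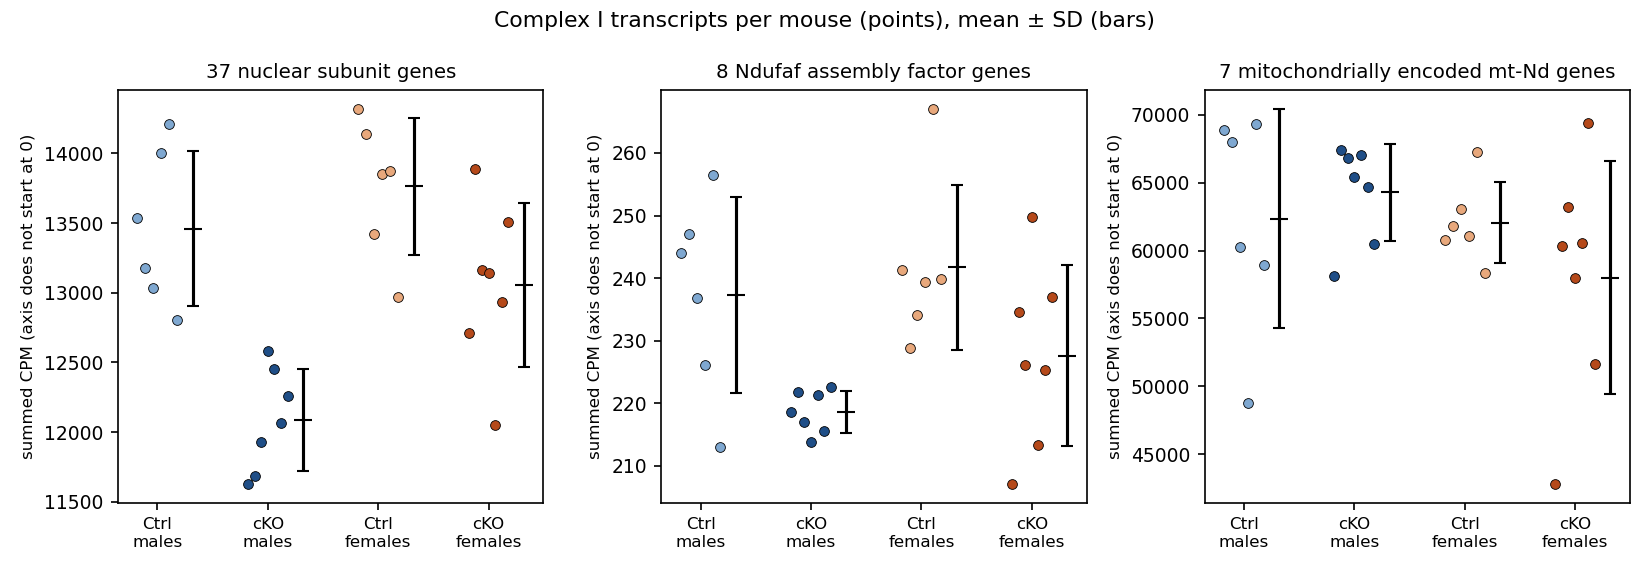
Summed CPM of the 37 subunits, the 8 assembly factors and the 7 mitochondrially encoded mt-Nd genes on the vertical axes, which do not start at 0, for each mouse (points) with mean and SD (bars) by group. The subunit sums of cKO males (11628 to 12582 CPM) all lie below those of Ctrl males (12806 to 14209 CPM), whereas the mt-Nd sums overlap in both sexes.

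The core subunits, which carry the flavin and the iron-sulfur clusters, had a median of -0.15 in cKO males. By edgeR 7 of 7 were lower at an unadjusted p under 0.05, beside 7.09% of all genes, and none passed after adjustment. Ndufs8, an iron-sulfur subunit next to the ubiquinone site, was at 261, 284 and 307 CPM (lowest, median, highest) in Ctrl males and at 233, 244 and 260 CPM in cKO males. These ranges did not overlap, with a log2 fold change of -0.20 (adjusted p = 0.059 by edgeR, SE 0.05). Ndufv2, an iron-sulfur subunit of the NADH-binding module, was at -0.18 (adjusted p = 0.0717 by edgeR, SE 0.05). Ndufv1, which binds NADH and the flavin, was at 727, 767 and 806 CPM in Ctrl males and at 613, 695 and 724 CPM in cKO males, again without overlap, with -0.17 (adjusted p = 0.0876 by edgeR, SE 0.05). Ndufs1, the large iron-sulfur protein of that module, was at -0.15 and Ndufs3 of the ubiquinone module at -0.15. Ndufs7, which lines the ubiquinone-binding site, was at -0.11.

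Among the accessory subunits of the matrix arm, 9 of 9 were below 0 in males, with a median of -0.18. Of these 1 was called lower, beside 0.26% of all genes. This was Ndufa9 (ENSMUSG00000000399, chromosome 6), a nucleotide-binding subunit where the matrix arm meets the membrane arm. Its level was 506, 529 and 547 CPM (lowest, median, highest) in Ctrl males and 436, 469 and 485 CPM in cKO males. The groups did not overlap, and the log2 fold change was -0.18 (adjusted p = 0.0296 by edgeR, SE 0.04). Ndufs6, a zinc-binding subunit, was at 292 to 341 CPM in Ctrl males and 258 to 287 CPM in cKO males, with -0.21 (adjusted p = 0.0506 by edgeR, SE 0.05). Ndufs4, which holds the NADH-binding module to the arm, was at 221 to 253 CPM in Ctrl males and 193 to 208 CPM in cKO males, with -0.20 (adjusted p = 0.0518 by edgeR, SE 0.05). Neither range overlapped between the genotypes, and both genes fell just short of the threshold. Ndufa12, the subunit that replaces the assembly factor Ndufaf2 late in assembly, had the smallest difference of this arm, -0.08 (adjusted p = 0.529 by edgeR, SE 0.05).

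Ndufab1, the mitochondrial acyl carrier protein, which sits in both arms and also serves fatty acid and lipoic acid synthesis, was at 459, 486 and 499.5 CPM in Ctrl males and at 412, 435 and 451 CPM in cKO males. The ranges did not overlap, and the log2 fold change was -0.15 (adjusted p = 0.0617 by edgeR, SE 0.04).

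In the membrane arm 20 of 20 accessory subunits were below 0 in males, with a median of -0.15. Of these 2 were called lower, beside 0.26% of all genes. Ndufb9 (ENSMUSG00000022354, chromosome 15), at the far end of the arm, was at 619, 655 and 734 CPM in Ctrl males and at 533, 578 and 602 CPM in cKO males. These groups did not overlap, with a log2 fold change of -0.21 (adjusted p = 0.0316 by edgeR, SE 0.05). Ndufb10 (ENSMUSG00000040048, chromosome 17), a neighbour in the same part of the arm, was at 435, 492 and 534 CPM in Ctrl males and at 398, 413 and 464 CPM in cKO males. Here the groups overlapped, since the highest cKO male was above the lowest Ctrl male, and the log2 fold change was -0.21 (adjusted p = 0.0486 by edgeR, SE 0.05). Ndufb3, a small subunit of this region, had the lowest value of the arm after Ndufs5, -0.22 (adjusted p = 0.0604 by edgeR, SE 0.06). Ndufb5 was at -0.16 (edgeR adjusted p = 0.0557) and Ndufb11 at -0.20 (edgeR adjusted p = 0.0847). The smallest differences were those of Ndufb6 (-0.07) and Ndufa11 (-0.08), a subunit on the side of the arm.

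**Figure D3:**
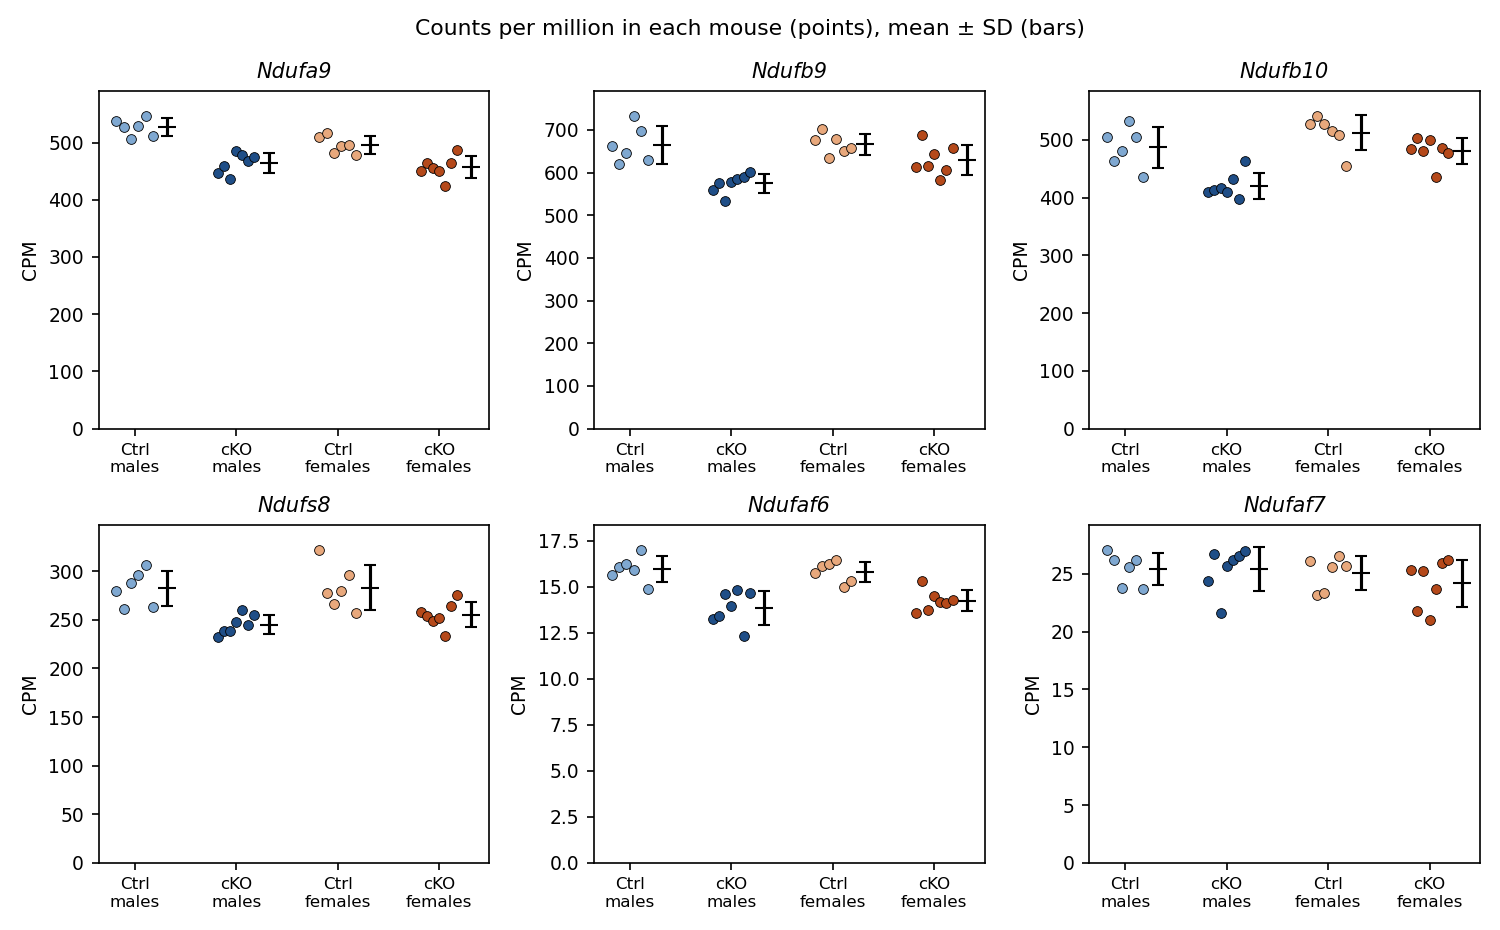
CPM on the vertical axes, from 0, for each mouse (points) with mean and SD (bars) by group, in 4 subunits and 2 assembly factors. Ndufa9, Ndufb9, Ndufs8 and Ndufaf6 show cKO males below all Ctrl males, Ndufb10 shows a small overlap, and Ndufaf7 shows male groups at the same level (means of 25.4 CPM in both).

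Ranges of the 2 male genotypes did not overlap, with cKO lower, for 9 of 37 subunits (Ndufab1, Ndufs8, Ndufv1, Ndufa9, Ndufs4, Ndufs6, Ndufb4, Ndufb5 and Ndufb9) and 1 of 8 assembly factors (Ndufaf6), beside 0.873% of all genes tested. Without Ctrl males 3 and 6 these were 16 of 37 subunits and 2 of 8 assembly factors, beside 1.95% of all genes. In 29 of 37 subunits and 4 of 8 assembly factors all 7 cKO males were below the mean of the Ctrl males, as they were for 8.5% of all genes tested.

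The number of genes called in males moved with the test and with single mice. It was 0 without any one of Ctrl males 1, 4 and 5 and cKO males 1, 2, 5 and 6, 1 without Ctrl male 3 or cKO male 3, and 5 to 9 without Ctrl male 6 or any one of Ctrl females 2 and 6 and cKO females 2 and 5, whereas DESeq2's Wald test called 17 and limma voom 11. These tools also called more of all genes tested, 2.51% with DESeq2 and 1.37% with limma voom, and with a mouse left out edgeR called 0.0259% to 0.789% of them. Without Ctrl males 3 and 6 together 0 were called, where 0.0448% of all genes were, although the medians were farther from 0, at -0.18 for subunits and -0.19 for assembly factors, and Ndufa9, Ndufb9 and Ndufb10 then each had an edgeR adjusted p = 0.0545.

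Among the assembly factors, log2 fold changes in males ran from -0.20 to 0.00. Ndufaf6, which acts in the assembly of the early membrane and ubiquinone modules, was at 14.9, 16.0 and 17.0 CPM in Ctrl males and at 12.3, 13.9 and 14.8 CPM in cKO males. The ranges did not overlap, although the highest cKO male was close to the lowest Ctrl male, and the log2 fold change was -0.20 (adjusted p = 0.059 by edgeR, SE 0.05). Ndufaf8, the partner of Ndufaf5, was at 23.2, 26.01 and 27.5 CPM in Ctrl males and 21.1, 22.9 and 24.2 CPM in cKO males, with overlap and a log2 fold change of -0.18 (adjusted p = 0.207 by edgeR, SE 0.07). Ndufaf3, which builds the ubiquinone module together with Ndufaf4, was at -0.16 (adjusted p = 0.148 by edgeR, SE 0.05), and Ndufaf4 at -0.11 (adjusted p = 0.542 by edgeR, SE 0.07). Ndufaf1, which works with Ecsit and Acad9 on the membrane arm, was at -0.13 with a large error (SE 0.12), since its Ctrl males ran from 31.8 to 47.5 CPM. Ndufaf2 was at -0.12 (SE 0.08) and Ndufaf5, which hydroxylates Ndufs7, at -0.05 (SE 0.05). Ndufaf7, a methyltransferase of the mitochondrial matrix, was at 0.00 (SE 0.06), with ranges of 23.7 to 27.1 CPM in Ctrl males and 21.6 to 27.0 CPM in cKO males.

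Standard errors were larger for the assembly factors, with a median of 0.06 in males against 0.05 for the subunits and 0.10 for all genes tested. To set the classes side by side in each mouse, the mean log2 CPM of the assembly factors was subtracted from that of the subunits. This difference was 3.51 to 3.67 in Ctrl males, 3.47 to 3.62 in cKO males, 3.52 to 3.72 in Ctrl females and 3.54 to 3.69 in cKO females. Ranges of the genotypes overlapped in both sexes. The means were 3.59 (SD 0.06) in Ctrl males and 3.54 (SD 0.05) in cKO males, and 3.61 (SD 0.07) in Ctrl females and 3.63 (SD 0.05) in cKO females. Whether the distance between subunits and assembly factors differed between genotypes was not tested.

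In females the same genes were mostly lower in cKO, by smaller amounts, and none passed the test. The subunits were below 0 in 36 of 37 cases, with a median of -0.07, a difference of -4.73%, beside 0.00 for all genes. The exception was Ndufa11, at 0.01 (SE 0.05). The assembly factors were below 0 in 6 of 8 cases, with a median of -0.09. EdgeR called 0 members, beside 0.0326% of all genes, DESeq2 and limma voom also called 0, and at an unadjusted p under 0.05 edgeR had 9 subunits and 2 assembly factors lower, beside 2.42% of all genes.

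Among the subunits the smallest p in females was that of Ndufa9, at 478, 495 and 517 CPM in Ctrl females and 424, 455 and 487 CPM in cKO females. These groups overlapped, and the log2 fold change was -0.12 (adjusted p = 0.787 by edgeR, SE 0.04). Ndufs8 was at 257, 279 and 322 CPM in Ctrl females and 234, 254 and 275.5 CPM in cKO females, with overlap and a log2 fold change of -0.15 (adjusted p = 0.825 by edgeR, SE 0.05). All 7 core subunits were below 0 in females, with a median of -0.10. By edgeR 5 of them had an unadjusted p under 0.05, beside 2.42% of all genes lower, and the smallest adjusted p was 0.825. The accessory subunits of the matrix arm had a median of -0.06 in females and those of the membrane arm of -0.06.

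Of the assembly factors in females, Ndufaf6 was at 15.01, 15.9 and 16.4 CPM in Ctrl and 13.6, 14.2 and 15.3 CPM in cKO, overlapping, with a log2 fold change of -0.15 (adjusted p = 0.825 by edgeR, SE 0.05). Ndufaf5 was at -0.15 (adjusted p = 0.918 by edgeR, SE 0.06), farther from 0 than in males. Ndufaf1 had the lowest value, -0.19, with the largest error (SE 0.12), and ran from 26.4 to 47.5 CPM in cKO females. Ndufaf2 (0.07, SE 0.08) and Ndufaf8 (0.01, SE 0.07) were the members above 0. No subunit or assembly factor had ranges apart in females, where 0.0521% of all genes tested did so with cKO lower. All 7 cKO females were below the Ctrl mean in 11 of 37 subunits and 3 of 8 assembly factors, beside 3.37% of all genes tested. The summed subunits ran from 12972 to 14317 CPM in Ctrl females and from 12049 to 13891 CPM in cKO females, and the summed assembly factors from 229 to 267 and from 207 to 249.8 CPM, both with overlap.

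The genotype effects of the sexes were compared by their difference, female minus male. It was above 0 for 35 of 37 subunits, with a median of 0.09 beside 0.01 over all genes, and for 5 of 8 assembly factors, with a median of 0.04. Of the members 0 were called by edgeR, by DESeq2 and by limma voom, beside 0.0% of all genes by edgeR. At an unadjusted p under 0.05 there was 1 member, Ndufa2 of the matrix arm (0.17, SE 0.08), beside 3.96% of all genes. The effects of the sexes are therefore not shown to differ for any member, although the male values were farther from 0 in most of them.

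When the effect was averaged over both sexes, all 45 subunits and assembly factors were below 0, with medians of -0.11 for subunits and -0.10 for assembly factors. EdgeR called 11 subunits and 1 assembly factor lower, beside 1.33% of all genes (0.866% called lower). Of the core subunits these were Ndufs8 (-0.18, edgeR adjusted p = 0.0142), Ndufv2 (-0.15, edgeR adjusted p = 0.0219), Ndufs3 (-0.13, edgeR adjusted p = 0.0277) and Ndufv1 (-0.13, edgeR adjusted p = 0.0382). The matrix arm gave Ndufa9 (-0.15, edgeR adjusted p = 0.00681), Ndufs6 (-0.15) and Ndufs4 (-0.14), the membrane arm Ndufb9 (-0.14), Ndufb10 (-0.15) and Ndufb5 (-0.11), and Ndufab1 was at -0.11 (edgeR adjusted p = 0.0377). The assembly factor was Ndufaf6, at -0.18 (adjusted p = 0.0141 by edgeR, SE 0.04), among the lowest values of all 45 genes. Ndufaf3 (-0.13, edgeR adjusted p = 0.0709) came next among the assembly factors, and Ndufaf2 (-0.02) and Ndufaf7 (-0.03) were nearest to 0.

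The number called in this averaged comparison was 12 with all mice (1.33% of all genes tested). It was 4 without Ctrl male 5 (0.621%), 5 without Ctrl female 1 (0.704%), 6 without cKO female 5 (0.751%) and 7 without cKO male 1 (1.02%). Without Ctrl males 3 and 6 it was 15 (1.59%), of which 11 were among the 12. The share of all genes called thus also moved with the mice left out.

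Between the sexes, Ctrl mice showed little difference in these genes. EdgeR, DESeq2 and limma voom called 0 members in Ctrl, beside 0.638% of all genes by edgeR, and at an unadjusted p under 0.05 edgeR had 4 subunits higher and 1 lower in females, beside 12.1% of all genes in either direction. In Ctrl mice 29 of 37 subunits and 4 of 8 assembly factors were higher in females, by small amounts, with medians of 0.03 and 0.01. In cKO mice 35 of 37 subunits and 6 of 8 assembly factors were higher in females, with medians of 0.13 and 0.03. EdgeR called 6 subunits and 1 assembly factor higher, beside 2.7% of all genes (1.43% called higher).

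The member of smallest p was Ndufb11, an X-linked subunit of the membrane arm, at 299, 324 and 338 CPM in cKO males and 348, 384 and 458 CPM in cKO females. These groups did not overlap, and the log2 fold change was 0.25 (adjusted p = 0.0148 by edgeR, SE 0.05). In Ctrl mice Ndufb11 differed between the sexes by 0.10 (adjusted p = 0.541 by edgeR, SE 0.06), with 328 to 412 CPM in males and 378 to 422 CPM in females. The assembly factor Ndufaf8 was at 21.1, 22.9 and 24.2 CPM in cKO males and 21.9, 27.3 and 31.4 CPM in cKO females, overlapping, with 0.27 (adjusted p = 0.022 by edgeR, SE 0.06). Ndufb10 (0.20, edgeR adjusted p = 0.0265), Ndufa13, also known as GRIM-19 (0.22, edgeR adjusted p = 0.0271), and Ndufs6 (0.19, edgeR adjusted p = 0.0331) were also higher in cKO females, and Ndufb7 and Ndufa2 completed the 7. The ranges of cKO males and cKO females were apart for Ndufb11, Ndufb7 and Ndufa3, beside 0.567% of all genes with females higher.

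Of these 7 calls (2.7% of all genes called) 1 was left without cKO female 2 (1.46%) and 2 without cKO male 1 (1.26%). There were 3 left without cKO male 2 (1.97%), cKO male 6 (1.54%) or cKO female 4 (1.06%), and 4 without cKO female 7 (1.9%). Without cKO female 5, 12 were made (2.58%). The share of all genes called was thus also lower in each of these fits. Since cKO males enter both this comparison and the male genotype comparison, the lower values of cKO males are the same measurements in both.

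Markers of heart muscle moved with the subunits. Of the 8 cardiomyocyte markers 7 were below 0 in cKO males (median -0.16) and 2 were called lower, beside 0.26% of all genes. The 2 were Tnni3 (-0.24, edgeR adjusted p = 0.0316) and Myl3 (-0.20, edgeR adjusted p = 0.0374), which encode a troponin and a myosin light chain. In females 8 of 8 were below 0 (median -0.09) and 0 were called by edgeR, beside 0.0326% of all genes. At an unadjusted p under 0.05 edgeR had 1 marker lower, beside 2.42% of all genes. The summed level of the 8 markers was 68140 to 76061 CPM in Ctrl males, 59771 to 70957 CPM in cKO males, 68917 to 82074 CPM in Ctrl females and 64805 to 77097 CPM in cKO females. The ratio of summed subunits to summed cardiomyocyte markers was 0.173 to 0.204 in Ctrl males, 0.171 to 0.197 in cKO males, 0.164 to 0.196 in Ctrl females and 0.171 to 0.201 in cKO females. These ratios overlapped between genotypes in both sexes, with male means of 0.188 in Ctrl and 0.186 in cKO. In cKO mice 7 of the 8 markers were higher in females than in males and 1 was lower (-0.18), with a median of 0.10. EdgeR called 2 of them higher, beside 1.43% of all genes. These were Tnni3 (0.24, adjusted p = 0.00821 by edgeR) and Myl2 (0.26, adjusted p = 0.0231 by edgeR). In whole tissue, fewer heart muscle cells and less of these transcripts per cell cannot be told apart.

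The part of other cell types in the subunit result was not tested. Of 6 fibroblast markers 5 were above 0 in cKO males, with 0 called by edgeR, 2 higher at an unadjusted p under 0.05 (6.11% of all genes) and summed levels of 762 to 1108 CPM in Ctrl males and 885 to 1166 CPM in cKO males. The 2 were the collagen genes Col1a1 (0.52, adjusted p = 0.0553 by edgeR), which ran from 72.7 to 104 CPM in Ctrl males and from 106 to 142 CPM in cKO males without overlap, and Col1a2 (0.32, adjusted p = 0.142 by edgeR). Col1a2 was lower in cKO females than in cKO males (-0.40, adjusted p = 0.0307 by edgeR). Of the 4 atrial markers only Myl4 and Nppa could be tested, both above 0 in both sexes with 0 called and 1 higher in males at an unadjusted p under 0.05 (Nppa 1.15, adjusted p = 0.171 by edgeR), and their summed levels were 87.4 to 424 CPM in Ctrl males and 125 to 737 CPM in cKO males. Endothelial markers summed to 841 to 1147 CPM in Ctrl males and 794 to 1005 CPM in cKO males, smooth muscle and pericyte markers to 673 to 927 and 665 to 880 CPM, and macrophage markers to 102 to 167 and 117 to 168 CPM. In males 0 of the endothelial, smooth muscle and macrophage markers were called by edgeR, and 0 had an unadjusted p under 0.05.

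Transcript length also moved with the male difference. Over the 15092 genes with a length, the Spearman correlation of the longest transcript's length with the log2 fold change was 0.254 in males and 0.102 in females, so shorter transcripts tended to lower values in cKO males. The subunits are short, with a median longest transcript of 1005 bases against 1482.5 for the assembly factors and 3192 for all genes tested. With an offset for length and GC content in each library, the median of the subunits was -0.14 in males and -0.06 in females and that of the assembly factors -0.11 and -0.09, all still below 0, while 1 gene was called in males and 6 in the average over both sexes.

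Assembly factors that are not named Nduf gave values of the same sign. Of 10 listed, 9 were tested and Coa1 was too low. All 9 were below 0 in males, with a median of -0.10, and 8 of 9 in females, with a median of -0.08. By edgeR 0 were called in either sex or in the average, with 4, 1 and 6 lower at an unadjusted p under 0.05, beside 7.09%, 2.42% and 7.7% of all genes tested. The lowest values in males were those of Tmem70 (-0.21, edgeR adjusted p = 0.154) and Timmdc1 (-0.17, edgeR adjusted p = 0.07), which act on the membrane arm, and the value nearest to 0 was that of Tmem126b (-0.03). Ecsit and Acad9, which act with Ndufaf1, were both at -0.09.

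The 7 complex I subunits encoded in mitochondrial DNA had medians of opposite sign in males and females. In males 5 were above 0 and 2 below, with a median of 0.15, and in females 6 of 7 were below 0, with a median of -0.08. The 2 below 0 in males were mt-Nd1 (-0.014, SE 0.09) and mt-Nd4 (-0.002, SE 0.07), with means of 24592 and 14458 CPM in Ctrl males. The highest male value was that of mt-Nd3 (0.37, SE 0.28), with a mean of 136 CPM in Ctrl males. None of the 7 was called in either sex by edgeR, and 0 had an unadjusted p under 0.05. The difference of the genotype effects was below 0 for 7 of 7, with a median of -0.21, 0 called by edgeR and 0 at an unadjusted p under 0.05. In cKO females 7 of 7 were below cKO males, with a median of -0.16, 0 called by edgeR and 1 at an unadjusted p under 0.05 (mt-Nd2, -0.25, edgeR adjusted p = 0.176), whereas 35 of 37 nuclear subunits were above 0 in that comparison. Their errors were large, since the summed mt-Nd level ran from 48726 to 69346 CPM in Ctrl males, 58142 to 67430 CPM in cKO males, 58331 to 67241 CPM in Ctrl females and 42788 to 69436 CPM in cKO females. Because the libraries were made from poly-A RNA, these values depend on how mitochondrial transcripts were captured, which was not tested.

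The subunits varied together from mouse to mouse within the groups. After the group means had been removed from the log2 CPM, the correlation between 2 subunits over 26 mice had a median of 0.475 (666 pairs), that between 2 assembly factors 0.130 (28 pairs) and that between a subunit and an assembly factor 0.205 (296 pairs). Between a subunit and any other gene tested the median was -0.00549. The 26 points share library, depth, scaling and tissue piece, and assembly factors have fewer counts and so more counting error, so these values are descriptions. Against the mean of the other subunits, the subunits had a median correlation of 0.681 and the assembly factors 0.286.

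Some members followed the rest closely and others hardly at all. Ndufs6 (0.87), Ndufb4 (0.85) and Ndufb9 (0.82) had the highest correlations with the mean of the other subunits. Among the core subunits, Ndufv2 (0.69) and Ndufs8 (0.66) followed the mean more closely than Ndufv1 (0.48) and Ndufs1 (0.19). Over the 37 subunits the Spearman correlation of transcript length with this value was -0.330, so that longer transcripts tended to follow less. Among the assembly factors, Ndufaf2 and Ndufaf6 (both 0.50) and Ndufaf8 (0.43) were highest, and Ndufaf5 (0.06) and Ndufaf7 (0.04) lowest. Ndufa4, once counted in complex I and now assigned to complex IV, followed the complex I subunits with 0.84.

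**Figure D4:**
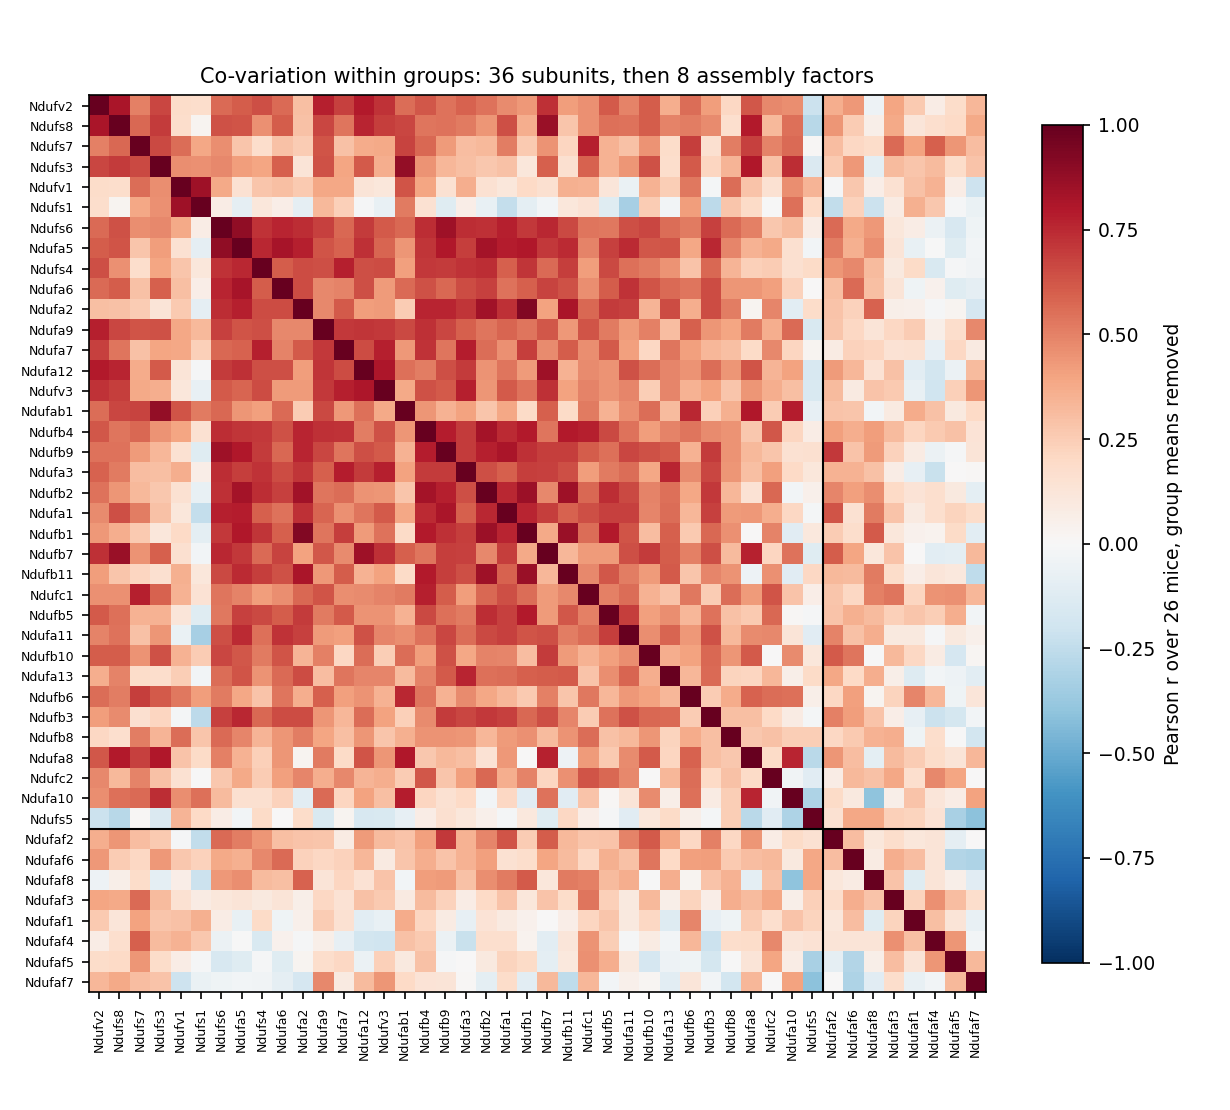
Pearson correlation between genes over 26 mice after removal of group means, as a colour from -1 (blue) to 1 (red), with 36 of the subunits followed by 8 assembly factors behind the black lines. Most of the subunit block is red (median 0.475 over all 666 pairs), with paler rows for Ndufs5 and Ndufs1, and the assembly factor block is paler (median 0.130).

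Ndufs5, a subunit of the membrane arm that faces the intermembrane space, stood apart from all others. It was at 48.0 to 66.6 CPM in 10 mice and at 96.7 to 122 CPM in the other 16, with no mouse in between. The low mice were Ctrl male 6, cKO males 2, 4, 5, 6 and 7, Ctrl females 1 and 5 and cKO females 1 and 6, so both genotypes and both sexes held mice of each kind. The row named Ndufs5-ps, a pseudogene of this gene, was at 45.03 to 62.6 CPM in the same 10 mice and at 27.6 to 37.3 CPM in the other 16. The 2 rows thus moved in opposite directions, mouse by mouse.

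By group, Ndufs5 was at 52.5, 111 and 122 CPM (lowest, median, highest) in Ctrl males, 48.0, 57.5 and 98.5 CPM in cKO males, 60.5, 109 and 122 CPM in Ctrl females and 55.7, 109 and 114 CPM in cKO females. The male log2 fold change of -0.64 had an SE of 0.24 and an edgeR adjusted p = 0.228, and the female value was -0.05 (SE 0.24). Its SD within groups on the log2 scale was 0.45, against at most 0.13 for any other subunit. The sum of both rows was 108 to 159 CPM in Ctrl males, 96.8 to 129 CPM in cKO males, 123 to 157 CPM in Ctrl females and 109 to 151 CPM in cKO females, overlapping in both sexes. Reads of a gene and its near-identical copy can be exchanged in counting, and mice on a mixed background can differ in sequence, and the part of either in this pattern was not tested. Without Ndufs5 the male median of the other 36 subunits was -0.15.

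**Figure D5:**
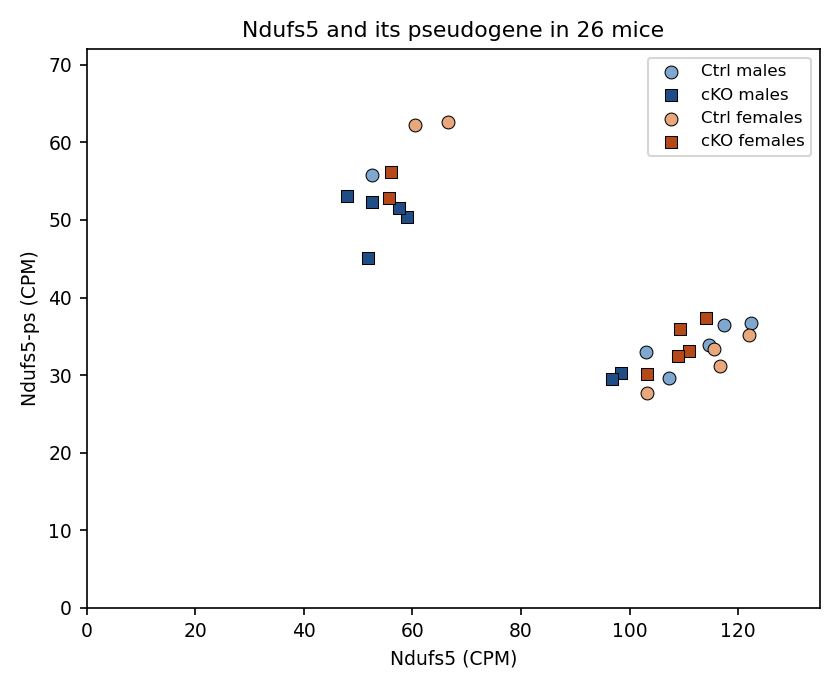
CPM of Ndufs5 (horizontal) against CPM of Ndufs5-ps (vertical) for 26 mice, with symbol and colour by group. Mice fall into 2 clusters, 10 with low Ndufs5 (48.0 to 66.6 CPM) and high Ndufs5-ps, and 16 with high Ndufs5 (96.7 to 122 CPM) and low Ndufs5-ps, and each group has mice in both.

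The remaining members were counted apart from the subunits. Ndufa4 was at 709, 753 and 845 CPM in Ctrl males and 631, 670.5 and 686 CPM in cKO males, without overlap, with a log2 fold change of -0.19 (adjusted p = 0.107 by edgeR, SE 0.06), and -0.06 (SE 0.06) in females. Its relative Ndufa4l2, known as a hypoxia-induced gene, was at 14.9 ± 1.19 CPM (SD, n = 6) in Ctrl males and 14.7 ± 1.72 CPM (SD, n = 7) in cKO males, a difference of -0.02 (SE 0.08). Of the 7 copies and pseudogenes tested, 4 were below 0 and 3 above in males, 2 below and 5 above in females, and 0 were called by edgeR in any of the 6 contrasts, with 1 at an unadjusted p under 0.05. Ndufa12-ps also fell into 2 clusters, at 6.70 to 9.01 CPM in 5 mice and 11.6 to 17.1 CPM in 21. The 5 low mice were Ctrl males 3 and 6, cKO male 3, Ctrl female 1 and cKO female 1. The counting of copies is uncertain for the reason given for Ndufs5.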

How the data were processed

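The table the authors deposited holds raw counts, as whole numbers per gene, for 26 left ventricle libraries (stranded, poly-A, RNA integrity number at least 7.7, per the labels). The submitters' processing notes name FastQC 0.74, cutadapt 4.6, STAR 2.7.11a, HTSeq and GRCm39; the annotation, and whether strand was used, are not given in the sources used here. Every column matched 1 sample (0 left over), and 0 of 72 within-group pairs agreed within sampling noise (chi-square per degree of freedom 7.79 to 36.4).

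The model was fitted by edgeR 4.0.16 (R 4.3.3): filterByExpr (minimum count 10), TMM, 1 model with 4 group means over all mice, robust quasi-likelihood F tests, and Benjamini-Hochberg adjustment over 15357 genes. Members were called at an adjusted p under 0.05. CPM used TMM-scaled totals, and log2 CPM a prior count of 2. Each SE is the absolute fold change divided by the square root of F. Levels per kilobase used the shortest of the best-ranked coding transcripts, and lengths and GC came from GENCODE M21 by gene ID (98.3% of genes tested matched), without coordinates. The p-values measure the spread between these mice. The scripts were tested on simulated data.

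Named are the core subunits, all Ndufaf genes, Ndufab1, Ndufa4, Ndufa4l2, members called in a genotype contrast, the 5 called members of smallest p in each sex contrast, the ends of the level and male fold change rankings, and called pathway genes, except 1 member that enters the counts and medians but is not reported here by itself. Genes named outside this rule (Ndufa2, Ndufa3, Ndufb4, Ndufb7, the motif genes, copies and uncalled pathway genes) were picked with their values in view. The members and lists were chosen with earlier results of these data known.

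Alternatives were DESeq2 1.42.0, limma 3.58.1 voom with sample quality weights, DESeq2 size factors, estimation that was not robust, every gene kept, genes averaging 5 CPM or more, a fit of the compared groups alone, the replicate number as a block, a length and GC offset (natural splines with 4 degrees of freedom per library), that offset with the block, an adjusted p under 0.01, omission of Ctrl males 3 and 6, and omission of each mouse.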

Additional observations from a re-analysis of the deposited data

Results flagged for a closer look

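In each group, the highest or lowest mouse was compared with its nearest neighbour by Dixon's criterion, which chance alone passes in about 1 group in 20. Of 144 groups examined, 15 passed, where chance gives about 7.2. Genes that vary together and share mice are not independent, so this count is only a description.

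In cKO females, mouse 2 was the highest for Ndufa11 (348 CPM, next 307), Ndufa13 (555 CPM, next 488) and Ndufb11 (458 CPM, next 395). Mouse 5 was the lowest for Ndufab1 (427 CPM, next 467), Ndufb10 (436 CPM, next 477) and Ndufs3 (285 CPM, next 313). In Ctrl females, mouse 5 was the highest for Ndufaf3 (36.1 CPM, next 31.9), Ndufaf4 (87.6 CPM, next 68.7) and the summed assembly factors (267 CPM, next 241), and mouse 1 was the highest for Ndufb6 (168 CPM, next 149.6).

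In males, cKO mouse 1 was the lowest for Ndufa4 (631 CPM, next 667). Ctrl mouse 6 was the lowest for Ndufs5 (52.5 CPM, next 103) and the highest for Ndufs5-ps (55.8 CPM, next 36.7), as the only Ctrl male in the low cluster of Ndufs5. Ndufa12-ps was lowest in cKO male 3 (6.70 CPM, next 11.6) and in Ctrl female 1 (9.01 CPM, next 14.1).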

How the results depend on the processing

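The medians of subunits and assembly factors stayed below 0 in both sexes under every alternative tried. With each mouse left out in turn they ran from -0.17 to -0.14 (subunits, males), -0.09 to -0.06 (subunits, females), -0.17 to -0.11 (assembly factors, males) and -0.12 to -0.05 (assembly factors, females). Without Ctrl males 3 and 6 the assembly factor median in males was -0.19.

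The number of members called was less stable, and the cause was not tested; the share of all genes called is given in parentheses. In males it was 3 (0.443%), and 17 with DESeq2 (2.51%), 11 with limma voom (1.37%), 5 without robust estimation (0.56%), 0 without a filter (0.106%), 10 at a mean of at least 5 CPM (1.6%), 0 with only the compared groups (0.482%), 1 with the length and GC offset (0.208%), 0 without Ctrl males 3 and 6 (0.0448%), 0 at an adjusted p under 0.01 (0.026%), and 0 to 9 with each mouse left out (0.0259% to 0.789%). In the average over both sexes it was 12 (1.33%), and 21 with DESeq2 (3.42%), 6 without a filter (0.388%), 6 with the offset (0.918%), 1 at an adjusted p under 0.01 (0.15%), and 4 to 16 with each mouse left out (0.621% to 2.26%). For female against male cKO it was 7 (2.7%), and 13 with DESeq2 (4.61%), 3 without a filter (0.837%), 11 at a mean of at least 5 CPM (4.7%), 3 with the offset (2.17%), 0 at an adjusted p under 0.01 (0.449%), and 1 to 12 with each mouse left out (1.06% to 3.57%). It was 0 throughout (0 to 0 with each mouse left out) for the female genotype effect, the difference of the effects and female against male Ctrl.

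The labels do not say that a replicate number pairs mice. Same-numbered mice of the 2 genotypes had a mean correlation of deviations of -0.0259 in males (-0.163 to 0.0880) and 0.118 in females (-0.0969 to 0.404). For mice of different number the means were 0.00430 in males (-0.182 to 0.201) and -0.0186 in females (-0.235 to 0.205). Best correlation was with the own number in 1 of 12 males and 4 of 12 females. With 6 same-numbered pairs per sex, this check cannot settle whether the numbers pair the mice. With the replicate block 5 members were called in males (0.488% of all genes), 13 in the average (1.11%) and 5 for female against male cKO (2.35%). With the replicate block and the offset together these were 1 (0.182%), 6 (0.762%) and 2 (1.75%).

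Single genes close to 0 changed sign. Ndufa11 in females was at -0.0167 (voom), -0.00385 (replicate block), -0.00402 (block and offset) and -0.0306 to 0.0331 with a mouse left out. Ndufaf8 in females was at -0.00504 (voom), -0.000856 (block) and -0.0272 to 0.0552. Ndufaf7 in males was at -0.000716 (no filter), -0.0172 (block), -0.0466 (without Ctrl males 3 and 6) and -0.0184 to 0.0363, and Ndufaf5 in males at 0.00300 (offset) and 0.000864 (block and offset). With a mouse left out, Ndufa4l2 in males ran from -0.0633 to 0.0166 and Ndufs5 in females from -0.160 to 0.0423. The assembly factors had fewer counts than the subunits on average, and the part of depth in their results was not tested.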
